A study of Mus musculus with 2 samples.

Results

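The Sall genes Sall1, Sall2, Sall3 and Sall4 encode the vertebrate spalt-like zinc finger transcription factors. They were chosen by name, as the whole gene family, and make up 4 of the 22380 protein-coding genes of the annotation. Open chromatin at each gene was taken as the ATAC-seq peaks in the gene body and 50 kb on either side, which gave 91 of the 133554 peaks of both lists together. Of these, 29 lay at Sall1, 27 at Sall2, 21 at Sall3 and 14 at Sall4. In ATAC-seq, adapters are placed by the Tn5 transposase into DNA that nucleosomes do not wrap, and a peak is a position where such insertions pile up.

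The study compared undifferentiated mouse ESCs of the E14 line (WT) with Uhrf1 KO ESCs of the same line, in which the gene for Uhrf1 is inactivated, to see how chromatin accessibility changes without this protein. Both lines came from another laboratory and were grown with serum and leukemia inhibitory factor on plates coated with gelatin or with embryonic fibroblasts (MEFs), and the labels do not say which coating these cultures had. For each genotype 50000 cells were lysed and 1 library was sequenced, so a difference between the genotypes has no replicate error and no test could be made. Every comparison here therefore sets 1 WT library beside 1 Uhrf1 KO library.

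Sall proteins bind DNA through pairs of zinc fingers that favour AT-rich sequence, and a short motif at their N-terminus recruits the NuRD complex, which removes acetyl groups from histones and slides nucleosomes. Sall4 is a core factor of ESCs that acts beside Oct4, Sox2 and Nanog, and Sall1 is co-expressed with it in these cells. Sall1 and Sall4 are known for limb, kidney and heart malformations when mutated in humans, Sall2 for roles in neural and eye development, and Sall3 for roles in cranial nerves and for binding the DNA methyltransferase Dnmt3a. Uhrf1 reads hemimethylated DNA and brings Dnmt1 to it, which keeps CpG methylation through cell division.

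The lists held 71914 WT and 61640 Uhrf1 KO peaks, a KO to WT ratio of 0.857. Each peak was 101 bp wide, apart from a KO peak of 86 bp, the deposited score was 1 for every peak, and no reads per peak are known, so the strength of a peak cannot be read from the lists. A broad open region appears as several neighbouring peaks, which are not independent of each other. Intervals given below are 95% exact intervals (Poisson for numbers, conditional binomial for their ratios and Clopper-Pearson for shares) that cover counting error only, and for neighbouring peaks they are too narrow. A peak was called shared when a peak of the other library lay within 100 bp, and otherwise WT-only or KO-only. The promoter of Uhrf1 held 2 WT and 3 KO peaks, and a promoter peak does not check the knockout. At least 1 promoter peak was present in both libraries at 5 of 5 annotated ESC marker genes (Pou5f1, Sox2, Nanog, Esrrb and Zfp42, with 17 WT and 15 KO peaks in all). Of 8 fibroblast marker genes, which MEFs would carry, 5 had a promoter peak in WT (11 peaks) and 4 in Uhrf1 KO (8 peaks). A promoter peak was present at 63.6% of all genes in WT and 58.7% in Uhrf1 KO, so these counts do not set either list of markers apart. Col1a1, Col1a2, Prrx1 and Thy1 had promoter peaks in both libraries (4 and 2, 2 and 3, 3 and 2, and 1 and 1 in WT and Uhrf1 KO), Dcn had 1 in WT and 0 in Uhrf1 KO, and Col3a1, Postn and Lum had none. The part of feeder cells in the values at the Sall genes was not tested.

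Sall1 is shown first by its promoter sequences, because the start sites differ in how many peaks lay near them. Sall1 (ENSMUSG00000031665.6) lies on the minus strand of chr8:91551147-91568061 (mm9, the same assembly as NCBIM37) and spans 16915 bp. RefSeq gives it 3 TSSs, 0, 650 and 1300 bp downstream of the start of the gene in GENCODE vM1. The 250 bases upstream of each were taken from the RefSeq promoter table (build GRCm38.p6), and each 300-base entry matched NCBIM37 exactly at 1 place on the chromosome. Every CpG is in capitals.
Sall1, first TSS, chr8:91568062-91568311: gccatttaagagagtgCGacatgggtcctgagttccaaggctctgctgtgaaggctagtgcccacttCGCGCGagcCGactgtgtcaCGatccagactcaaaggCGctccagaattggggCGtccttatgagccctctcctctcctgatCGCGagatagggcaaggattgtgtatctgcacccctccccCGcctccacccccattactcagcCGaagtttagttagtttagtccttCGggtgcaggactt
Sall1, middle TSS, chr8:91567412-91567661: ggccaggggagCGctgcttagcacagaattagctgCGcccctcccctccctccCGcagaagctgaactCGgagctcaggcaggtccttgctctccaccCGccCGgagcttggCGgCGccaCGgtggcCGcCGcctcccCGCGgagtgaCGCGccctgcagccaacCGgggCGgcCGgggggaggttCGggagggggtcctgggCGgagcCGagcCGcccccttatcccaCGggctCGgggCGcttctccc
Sall1, last TSS, chr8:91566762-91567011: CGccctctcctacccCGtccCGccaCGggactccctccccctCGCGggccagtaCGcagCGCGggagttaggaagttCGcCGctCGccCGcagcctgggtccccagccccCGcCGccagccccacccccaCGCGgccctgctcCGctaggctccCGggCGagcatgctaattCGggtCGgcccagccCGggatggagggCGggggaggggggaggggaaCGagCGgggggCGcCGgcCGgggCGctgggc
GC content was 56.4% with 13 CpGs before the first TSS, 74.4% with 25 CpGs before the middle TSS and 78.4% with 30 CpGs before the last. No peak of either library lay within 300 bp of the first TSS. Within 300 bp of the middle TSS there were 4 WT and 3 KO peaks, and within 300 bp of the last TSS 3 WT and 2 KO peaks. In both libraries the open DNA of Sall1 thus lay over the GC-rich downstream start sites, inside the first intron of the vM1 model.

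The study used Sall1 as a locus for ChIP-qPCR, and its primers place the amplicon at chr8:91568314-91568598, between 253 and 537 bp upstream of the first TSS. They are shown because they fix which part of the promoter that assay read.
Sall1 forward primer: ttagcccctttccacggttc
Sall1 reverse primer: gccactgatagcttcgtttgtc
The 285-bp amplicon had a GC content of 45.6% and was overlapped by 0 WT and 0 KO peaks. The nearest peak was 660 bp away in WT and 716 bp away in Uhrf1 KO. The amplicon thus lay outside the listed open DNA in both libraries.

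Single peaks of Sall1 are shown as an example of each class, not as a difference between classes. The shared peak nearest to the start of the gene, the nearest WT-only peak and the KO-only peak are printed 5′ to 3′ on the strand of the gene. Capitals mark a match to the Klf and Sp motif GGGCGG or its reverse complement CCGCCC.
Sall1 shared peak (WT), chr8:91567553-91567653, 458 bp downstream: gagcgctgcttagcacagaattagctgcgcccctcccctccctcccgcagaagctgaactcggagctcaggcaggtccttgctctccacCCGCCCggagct
Sall1 WT-only peak, chr8:91567146-91567246, 865 bp downstream: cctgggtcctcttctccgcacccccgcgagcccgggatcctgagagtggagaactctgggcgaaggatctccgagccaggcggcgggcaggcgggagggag
Sall1 KO-only peak, chr8:91550071-91550171, 17940 bp downstream: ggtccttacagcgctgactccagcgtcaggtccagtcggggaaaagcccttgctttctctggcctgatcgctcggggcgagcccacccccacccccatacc
The shared peak held 1 such match over its 101 bases and the other peaks held none. GC content was 65.3% in the shared peak, 71.3% in the WT-only peak and 65.3% in the KO-only peak, with 6, 9 and 6 CpGs. In the central 200 bp, Sall1 WT peaks of both classes held the motif. The WT-only peaks 2390 bp upstream and 37408 bp downstream had 1 and 2 matches. Shared WT peaks 458, 521, 1201, 1268, 1332 and 52231 bp downstream had 1 to 4. The other WT peaks of Sall1, shared or WT-only, had 0, among them the shared peak at 714 bp.

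Sall2 (ENSMUSG00000049532.6, chr14:52930847-52948437, minus strand, 17591 bp) is transcribed from alternative promoters. Both are shown because only the downstream promoter had peaks. Every CpG is again in capitals, and the upstream stretch ends where the vM1 transcript begins.
Sall2, upstream TSS, chr14:52948438-52948595: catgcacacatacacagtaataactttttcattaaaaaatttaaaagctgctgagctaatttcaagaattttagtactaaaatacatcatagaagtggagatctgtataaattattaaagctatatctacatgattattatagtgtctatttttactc
Sall2, downstream TSS, chr14:52935999-52936248: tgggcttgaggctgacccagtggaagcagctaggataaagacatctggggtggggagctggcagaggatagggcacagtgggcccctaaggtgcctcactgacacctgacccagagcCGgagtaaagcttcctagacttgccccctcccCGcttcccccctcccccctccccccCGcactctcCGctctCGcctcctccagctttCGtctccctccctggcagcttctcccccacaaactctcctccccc
Sall2 shared peak (bases of the WT peak upstream of an internal vM1 TSS), chr14:52935911-52935967: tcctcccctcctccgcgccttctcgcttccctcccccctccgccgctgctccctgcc
The upstream stretch of 158 bases had a GC content of 25.3% and 0 CpGs. The downstream stretch had a GC content of 64.4% and 6 CpGs. Within 300 bp of the upstream RefSeq TSS there was no peak, the nearest being 2582 bp away in WT and 2573 bp away in Uhrf1 KO. Within 300 bp of the downstream RefSeq TSS, 12439 bp into the gene, there were 2 WT peaks and 1 KO peak.

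Sall4 (ENSMUSG00000027547.11, chr2:168573832-168593443, minus strand, 19612 bp) is shown by its nearest WT-only peak, because this peak began at the start codon, given in capitals.
Sall4 WT-only peak, chr2:168592429-168592529: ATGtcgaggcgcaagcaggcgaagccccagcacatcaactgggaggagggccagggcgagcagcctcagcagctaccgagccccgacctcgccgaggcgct
The WT-only peak covers the first 101 coding bases, where GC content was 69.3% with 9 CpGs. These bases encode the start of the protein, where the NuRD-recruiting motif lies.

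The 4 genes were all open in both libraries, and WT had more peaks than Uhrf1 KO at each of them, a direction that turned at Sall2 when neighbouring peaks were merged (6 WT and 7 KO regions) and at Sall4 when the WT list was shortened to the length of the KO list (3 WT and 6 KO peaks). At Sall1 the WT list held 18 peaks (interval 10.7 to 28.5) and the KO list held 11 (5.49 to 19.7). Sall2 had 15 WT peaks (8.40 to 24.7) and 12 KO peaks (6.20 to 21.0). Sall3 had 15 WT peaks (8.40 to 24.7) and 6 KO peaks (2.20 to 13.1). Sall4 had the fewest in WT over the whole window, with 8 peaks (3.45 to 15.8), and 6 KO peaks (2.20 to 13.1). At every gene the WT and KO intervals overlapped.

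**Figure D1:**
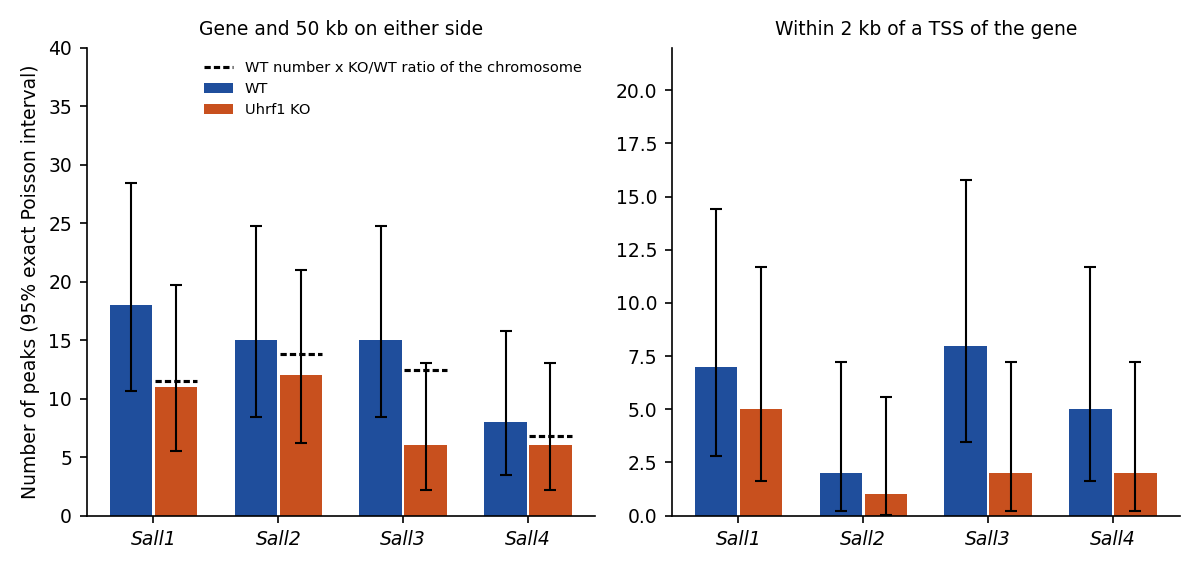
Number of ATAC-seq peaks of the WT and Uhrf1 KO libraries at each Sall gene, with 95% exact Poisson intervals as error bars, for the gene and 50 kb on either side (left) and within 2 kb of a TSS of the gene (right). Dashed lines give the WT number multiplied by the KO to WT ratio of the chromosome. Sall1 with 11 KO peaks is close to its line at 11.5, and Sall3 with 6 KO peaks has the largest distance from its line at 12.5.

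Set per length, the order in WT was Sall1 (15.4 peaks per 100 kb), Sall2 (12.8), Sall3 (12.5) and Sall4 (6.69). In Uhrf1 KO the order was Sall2 (10.2 peaks per 100 kb), Sall1 (9.41), Sall4 (5.02) and Sall3 (4.99). The counting intervals of neighbours in either order overlapped, so the orders themselves are descriptions. Both orders also count peaks at promoters of neighbouring genes. Without those peaks Sall2 had 5 WT and 3 KO peaks, fewer than Sall4 with 7 WT and 5 KO peaks. All 4 windows were richer in WT peaks than their chromosomes, which held 2.30 to 3.64 WT peaks per 100 kb. Whole chromosomes include stretches without genes, so this does not set the Sall genes apart from other genes. Over all protein-coding genes, the gene with 50 kb on either side held a median of 10 WT and 8 KO peaks. Sall4, with 8 WT and 6 KO peaks, and Sall3 in Uhrf1 KO, with 6, lay below these medians.

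The chromosomes differ in how many fewer peaks the KO list held, so each gene was read against its own. Chromosome 8, which carries Sall1, had the fewest KO peaks for its WT peaks of the 4 chromosomes, with a KO to WT ratio of 0.641. Sall1 had a ratio of 0.611 (0.261 to 1.37), and its chromosome's ratio would have given 11.5 KO peaks where 11 were listed. Of the 879 genes of chromosome 8 with at least 5 WT peaks, 45.1% had a ratio at or below that of Sall1, and their median ratio was 0.647. Sall1 thus lay near the middle of its chromosome. Over all chromosomes, 26.8% of such genes had a ratio at or below it.

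Sall2 and Sall4 were also near their chromosomes. The ratio of Sall2 was 0.80 (0.342 to 1.83) beside 0.924 on chromosome 14, with 12 KO peaks listed and 13.9 given by the chromosome. The ratio of Sall4 was 0.75 (0.215 to 2.47) beside 0.848 on chromosome 2, with 6 KO peaks listed and 6.79 given by the chromosome. In the 1 Mb around each gene, the ratio was 0.595 at Sall1, 0.927 at Sall2, 0.667 at Sall3 and 0.536 at Sall4.

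Sall3 had the lowest ratio of the family, 0.40 (0.127 to 1.09), beside 0.832 on chromosome 18. Its chromosome's ratio would have given 12.5 KO peaks where 6 were listed. On chromosome 18, 8.03% of 361 genes had a ratio at or below that of Sall3, and over all chromosomes 7.93% did. With neighbouring peaks merged the ratio was 0.667, above that of Sall1 (0.583), and in the lower 50% of the order of peak names described below it was 0.80, above that of Sall1 (0.714), so the lowest place of Sall3 depends on these choices. The interval of the ratio also reached past the chromosome's value, so the lower ratio was not resolved from it by counting error.

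A KO to WT ratio at or below 1 to 1.5, the fold used here to call a gene as having fewer KO peaks, was reached by Sall1 and Sall3 and not by Sall2 and Sall4. The background for this count was 36.2% of the 14487 genes with at least 5 WT peaks, and on chromosome 8 alone 54.7%, so 2 of 4 genes is close to what genes at large showed. Over the 4 windows together there were 56 WT and 35 KO peaks, a ratio of 0.625 (0.398 to 0.970) beside 0.857 for all peaks and a median of 0.786 over all genes tested. The value for all peaks does not allow for chromosome 8, whose ratio was 0.641 and which carries Sall1. Without the peaks at promoters of neighbouring genes the family ratio was 0.558. The backgrounds of 0.857 and 0.786 keep such peaks, so they are not like for like with 0.558.

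**Figure D2:**
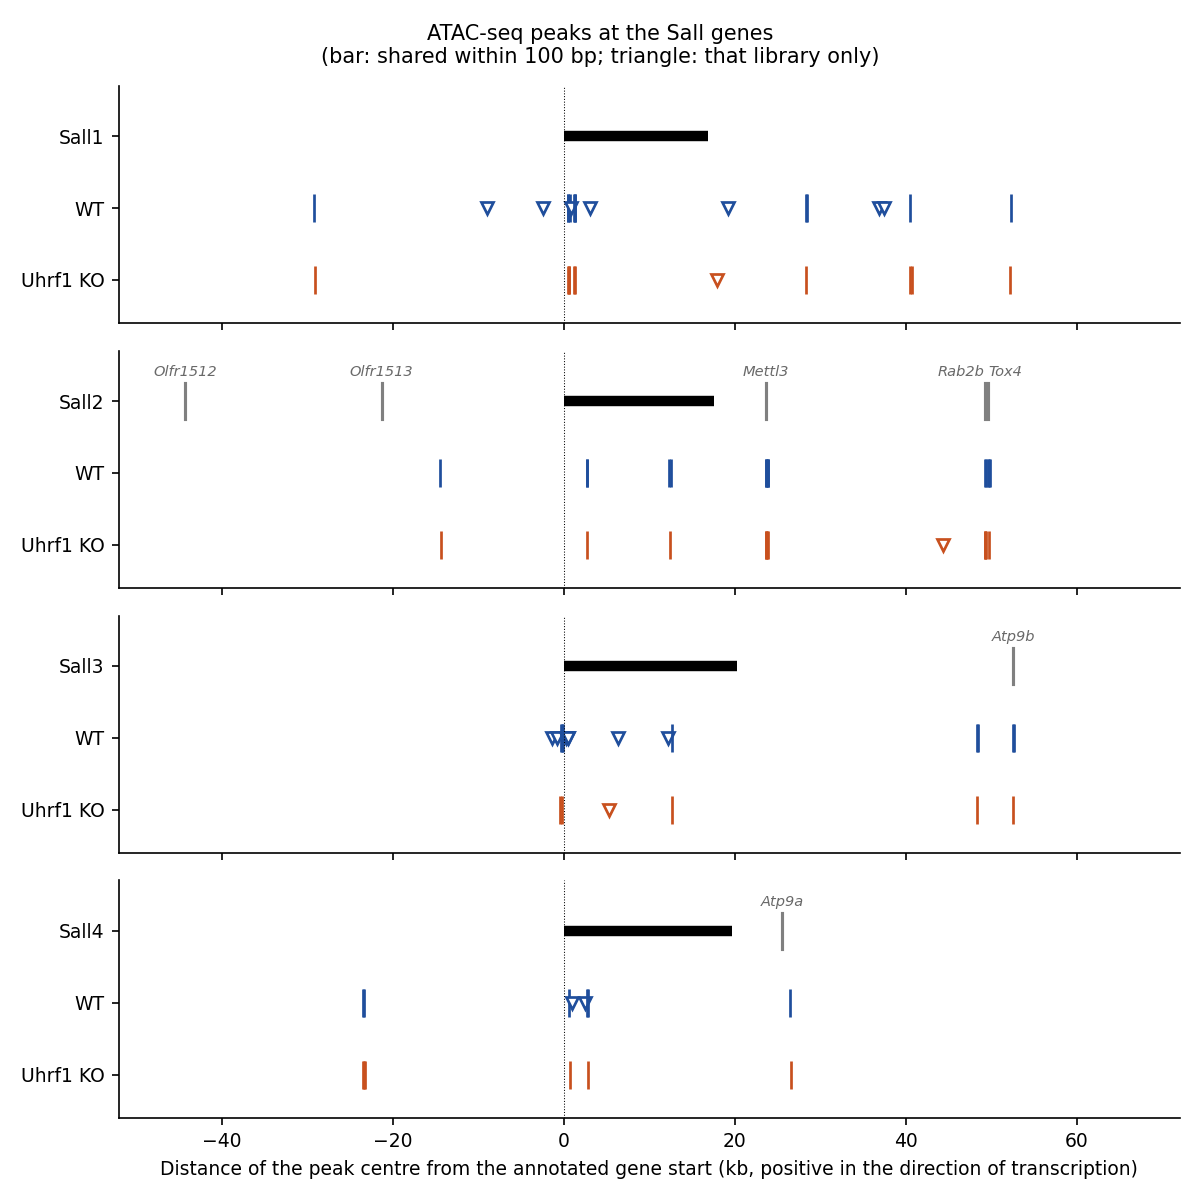
Position of the ATAC-seq peaks of the WT and Uhrf1 KO libraries in the windows of the 4 Sall genes, as distance in kb from the annotated start of the gene. Bars are peaks shared within 100 bp and triangles are peaks of that library only, black boxes are the Sall genes and grey ticks are TSSs of other protein-coding genes. WT-only triangles crowd at Sall1 and Sall3 (7 each), while Sall2 has none.

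Peaks of 1 library only were mostly WT peaks. Of the 56 WT peaks, 16 had no KO partner, or 28.6% (17.3 to 42.2%), beside 32.1% of all WT peaks. Of the 35 KO peaks, 3 had no WT partner, or 8.57% (1.80 to 23.1%), beside 24.6% of all KO peaks. The WT share of the family was thus close to the background, and the KO share lay below it. The upper bound of the KO interval was under the 24.6% of all KO peaks but above the 17.1% of chromosome 8, which carries Sall1. On chromosomes 2, 18 and 14 the KO-only share was 23.3%, 24.9% and 26.2%, so the separation depends on the background chosen. When the WT list was shortened to the length of the KO list, however, 25.7% of the KO peaks (9 of 35) had no WT partner. None of the 13 WT peaks at promoters of neighbouring genes was WT-only, so all 16 WT-only peaks were among the 43 others (37.2%). Of the 24 KO peaks away from neighbouring promoters, 2 were KO-only (8.33%).

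At Sall1, 7 of 18 WT peaks were WT-only, which is 38.9% (17.3 to 64.3%) beside 43.6% over chromosome 8. Only 1 of 11 KO peaks was KO-only, 9.09% (0.230 to 41.3%) beside 17.1% over the chromosome. Around the downstream start sites WT peaks formed 2 regions, 508 bp wide from 4 peaks and 232 bp wide from 3 peaks. The KO regions at the same sites were 230 bp wide from 3 peaks and 173 bp wide from 2 peaks. The far edge of the wider WT region was the WT-only peak 865 bp downstream, 121 bp from the nearest KO peak.

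The other WT-only peaks of Sall1 lay farther out. An intronic peak lay 3090 bp downstream of the start, and upstream peaks lay at 2390 and 8911 bp. Beyond the end of the gene there were WT-only peaks 19244, 36875 and 37408 bp from the start, all intergenic. The KO-only peak, 17940 bp downstream and just past the gene, had its nearest WT peak 1203 bp away. Shared distal peaks lay 29139 bp upstream and 28315, 28468, 40496 and 52231 bp downstream of the start in WT. No other protein-coding gene starts in the Sall1 window, so none of its distal peaks lies at the promoter of such a gene. Starts of non-coding genes were not looked at.

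Sall2 had its open sites in both libraries. All 15 WT peaks were shared (WT-only share 0%, interval up to 21.8%), and 1 of 12 KO peaks was KO-only, beside 28.3% WT-only and 26.2% KO-only peaks over chromosome 14. Of its own, Sall2 had a shared intergenic peak 14426 bp upstream in WT and a shared site in its first intron, with WT peaks 2674 and 2737 bp downstream of the start and a KO peak at 2665 bp. At the downstream promoter, the WT peaks were centred 12353 and 12520 bp into the gene and the KO peak between them, at 12476 bp. The other 10 WT and 9 KO peaks lay at promoters of neighbouring genes. Mettl3, the catalytic subunit of the RNA m6A methyltransferase, had 5 WT and 4 KO promoter peaks. Rab2b, a small GTPase of the secretory pathway, had 5 WT and 4 KO peaks at its promoter, and Tox4, an HMG box protein that starts beside it in the opposite direction, had 5 and 5, some of which both genes share. The olfactory receptor genes Olfr1513 and Olfr1512 upstream of Sall2 had none in either library. The KO-only peak lay in an intron of Tox4, 44319 bp downstream of the start of Sall2, and counted with the promoter of Tox4.

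Sall3 (ENSMUSG00000024565.8, chr18:81163115-81183317, minus strand, 20203 bp) had the most promoter peaks of the family in WT, and most of these were absent from the Uhrf1 KO list. WT peaks within 2 kb of its single annotated TSS were centred 1363, 772, 331, 260 and 123 bp upstream and 320, 473 and 555 bp downstream. KO peaks were centred 432 and 151 bp upstream only. The 3 WT peaks nearest upstream formed a region of 309 bp and were shared. The 3 downstream peaks formed a region of 336 bp, between 270 and 605 bp into the gene, in an intron, and had no KO partner, the nearest KO peak being 370 bp away or more. The WT-only peaks 772 and 1363 bp upstream were 239 and 830 bp from the nearest KO peak. Both libraries thus had peaks in the stretch just upstream of the Sall3 TSS, in part at the same place. The inner KO peak covered 101 to 201 bp upstream and had 73 bases in common with a WT peak. The WT region reached from 73 to 381 bp upstream, while the outer KO peak covered 382 to 482 bp upstream and had 0 bases in common with a WT peak. Peaks downstream of the TSS were listed in WT only.

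Inside the Sall3 gene the pattern was mixed. A shared peak lay in coding sequence 12616 bp downstream of the start in WT and 12633 bp in Uhrf1 KO, and a WT-only peak lay 297 bp away from it at 12235 bp. In the introns there was a WT-only peak at 6354 bp and a KO-only peak at 5286 bp, 967 bp apart. In all, 7 of 15 WT peaks were WT-only, 46.7% (21.3 to 73.4%) beside 33.3% over chromosome 18, and 1 of 6 KO peaks was KO-only, beside 24.9% over the chromosome. The remaining peaks, all shared, lay 48.3 kb downstream and at the promoter of Atp9b, a phospholipid flippase, which had 2 WT peaks and 1 KO peak.

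Over its whole window Sall4 had fewer WT peaks than the other members, though not fewer than Sall2 once peaks at neighbouring promoters were left out. Its peaks lay at its start, at an upstream cluster and at the next gene. At the start lay a shared peak, centred 657 bp into the gene in WT and 693 bp in Uhrf1 KO, with 65 bases in common. The WT-only peak over the first coding bases was 170 bp from this KO peak, the nearest one. A second WT-only peak, 2512 bp into the gene, was 207 bp from the nearest KO peak and 185 bp upstream of an internal TSS. Just downstream of that TSS lay shared peaks, centred 2747 and 2813 bp into the gene in WT and 2820 bp in Uhrf1 KO. The internal TSS was thus marked in both libraries, with an additional WT-only peak beside it.

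Away from its start, Sall4 had a shared intergenic cluster that held 2 WT peaks and 3 KO peaks, the only site of the family's upstream flanks with more KO than WT peaks. It spanned 159 bp in WT, from 23306 to 23464 bp upstream, and 259 bp in Uhrf1 KO, from 23221 to 23479 bp upstream. The last shared site lay in an intron of Atp9a, with 1 promoter peak in each library. Sall3 and Sall4 thus both neighbour a gene of the Atp9 flippases, Atp9b and Atp9a, downstream on the same strand. In all, 2 of 8 Sall4 WT peaks were WT-only, or 25% (3.19 to 65.1%), and 0 of 6 KO peaks were KO-only, which allows a share of up to 45.9%. Over chromosome 2 the shares were 32.3% and 23.3%.

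**Figure D3:**
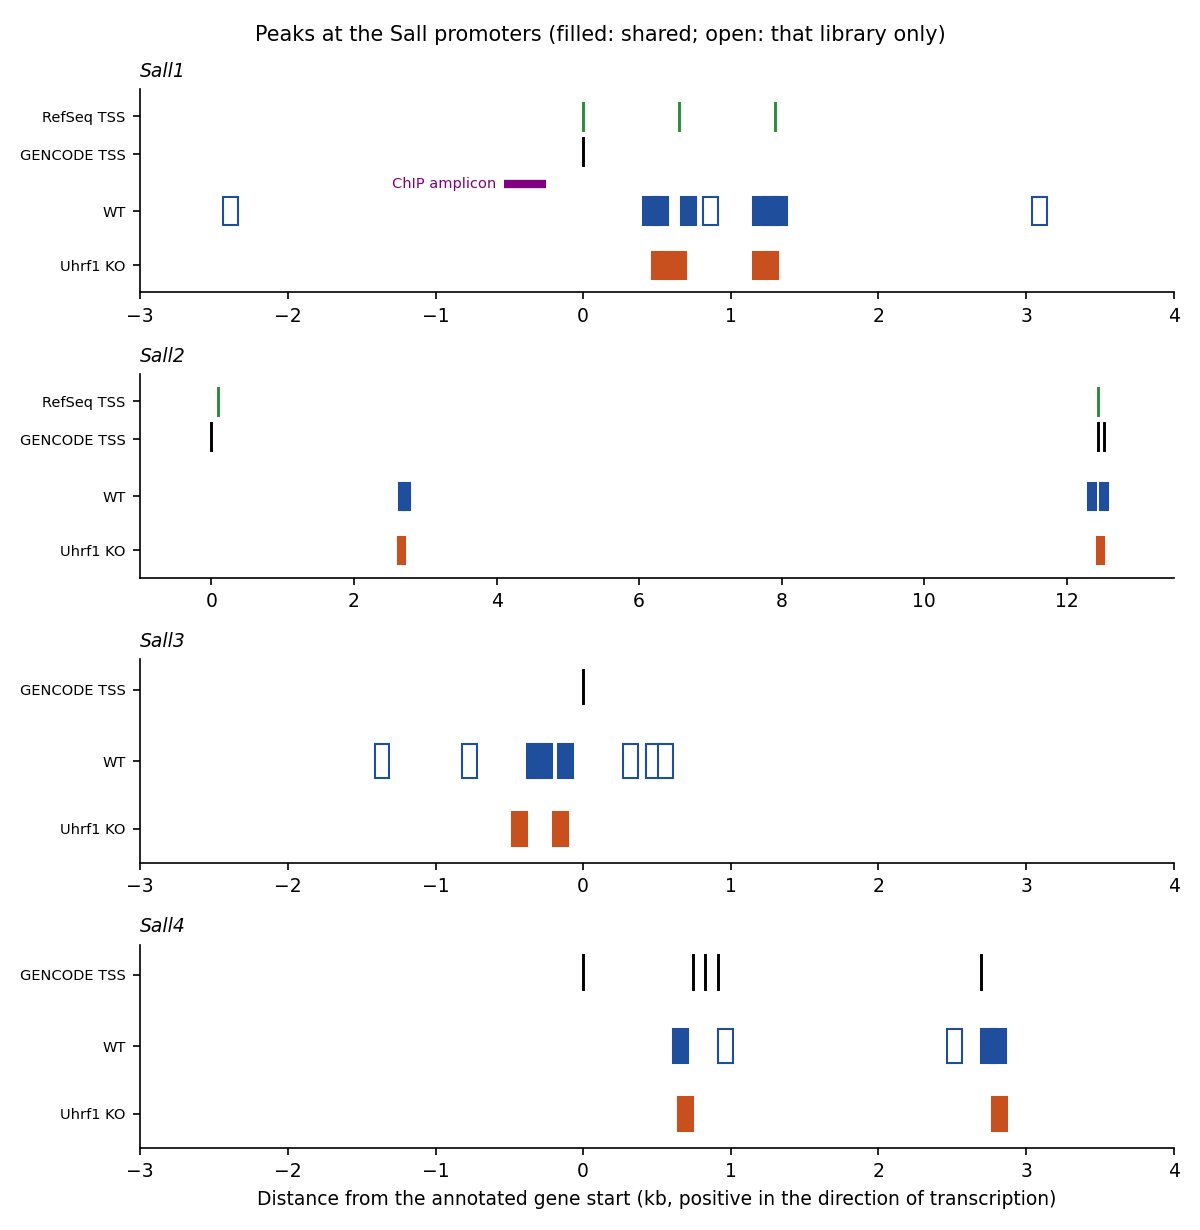
Peaks around the TSSs of each Sall gene, drawn to scale as distance in kb from the annotated start of the gene. Filled boxes are peaks shared within 100 bp, open boxes are peaks of that library only, black ticks are GENCODE vM1 TSSs, green ticks are RefSeq TSSs (drawn for Sall1 and Sall2) and the purple bar is the ChIP-qPCR amplicon. The first TSS of Sall1 and the upstream TSS of Sall2 carry no peak, and 5 of the 8 WT peaks of Sall3 are open boxes.

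Promoter peaks, within 2 kb of any annotated TSS of the gene, summed to 22 in WT and 10 in Uhrf1 KO over the family. All 4 genes had at least 1 in each library, where 63.6% of all genes did in WT and 58.7% in Uhrf1 KO. Of the 22 WT promoter peaks 14 were shared, and of the 10 KO promoter peaks all 10 were shared. No Sall promoter thus had a KO-only peak. Over all peaks of any kind, 32.1% of WT and 24.6% of KO peaks were unshared. The shares among promoter peaks of all genes are not given here, so these counts do not set the Sall promoters apart. Sall1 had 7 WT and 5 KO promoter peaks, Sall2 had 2 and 1, Sall3 had 8 and 2, and Sall4 had 5 and 2. Sall1 and Sall3 had many for a gene in WT, since 3.47% of all genes had at least as many WT promoter peaks as Sall1 and 1.92% as many as Sall3. In Uhrf1 KO these shares were 5.68% for Sall1 and 37.8% for Sall3. Sall4 moved from 10.6% to 37.8% and Sall2 from 46.6% to 58.7%. Over all genes with a WT promoter peak, 52.2% had fewer KO than WT peaks there, 30.1% equal numbers and 17.6% more. Fewer KO peaks, as at all 4 members, is thus the more common direction among these genes. Genes with promoter peaks in Uhrf1 KO only are left out of that background, which tilts it toward fewer KO peaks.

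The number in the name of each peak gave a further view of the WT-only peaks. What it stands for is not stated in the sources used here, and it was used only as an order within the chromosome, from 0% for the lowest number to 100% for the highest. Over all WT peaks, the share with a KO partner fell from 99.7% in the lowest 10% of this order to 34.3% in the highest. Over all KO peaks it fell from 99.3% to 46.5%. The WT-only peaks at the Sall genes had a median position of 71.5% and the shared WT peaks one of 38.8%. Over all WT peaks, the share with a KO partner was at least 72.9% in each 10% step of the lower 50%. In each step of the upper 50% it was at most 61.0%. Of the 25 Sall WT peaks with numbers in the lower 50%, 1 was WT-only (4%), the Sall1 peak 36875 bp downstream. The other 15 lay in the upper 50%, and what this order contributes to the WT-only peaks of Sall3 was not tested.

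**Figure D4:**
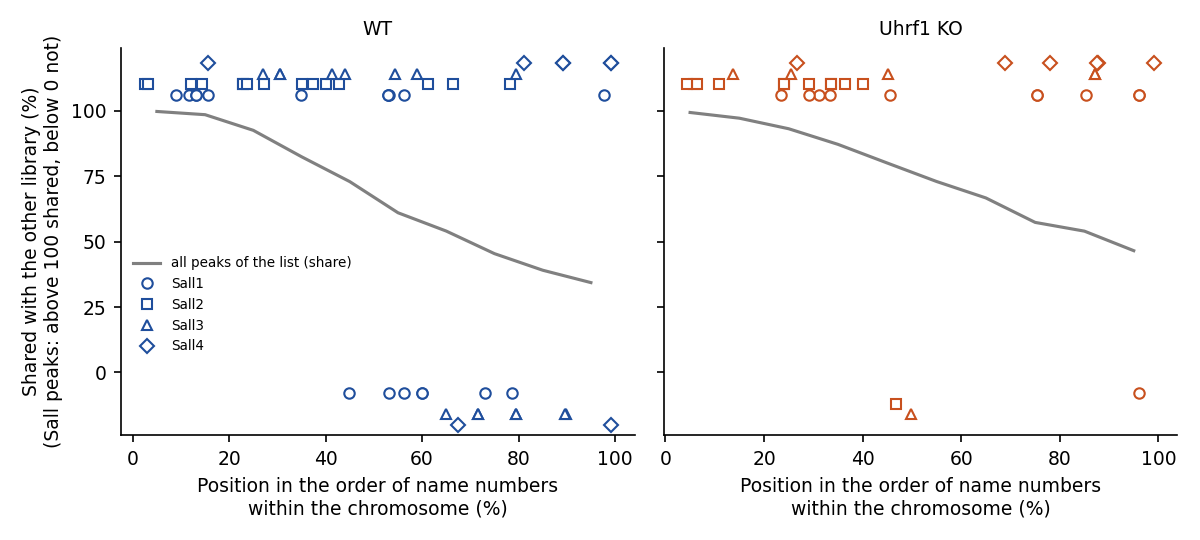
Position of each Sall peak in the order of name numbers within its chromosome (x axis, %), for WT (left) and Uhrf1 KO (right). The grey line is the share of all peaks of that list that are shared, by steps of 10% of the order, and symbols above 100% or below 0% are shared or unshared Sall peaks, offset by gene. Of the 16 unshared WT symbols, 15 lie to the right of 50%.

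The members held different places in this order. The WT promoter peaks of Sall1 were early, with a median position of 13.1%, and those of Sall3 and Sall4 were late, with medians of 71.5% and 89.2%. In Uhrf1 KO the medians were 31.1% for Sall1, 56.4% for Sall3 and 78.3% for Sall4. The peaks of the Sall2 window, most of them at neighbouring promoters, were early in both lists, with medians of 27.2% in WT and 26.6% in Uhrf1 KO.

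The sequence under the peaks was more GC-rich than that of peaks at large. Over the central 200 bp, GC content had a median of 64.3% in the 56 WT peaks (range 40% to 81%) beside 59.5% in all WT peaks. In the 35 KO peaks the median was 59.5% (43% to 82%) beside 56.5% in all KO peaks. By gene, the WT medians were 60.5% at Sall1, 60% at Sall2, 69% at Sall3 and 61.25% at Sall4. The KO medians were 63%, 59.5%, 65.75% and 55.25% in the same order, the last below that of all KO peaks. Many Sall peaks lay at promoters, and no background of promoter peaks was set beside them. The observed to expected CpG ratio, which falls where methylation has worn CpGs away over evolution, had a median of 0.717 in WT beside 0.544 for all peaks, and of 0.674 in Uhrf1 KO beside 0.446. WT-only peaks had a median GC content of 66.3% and shared WT peaks one of 63.3%, while the 3 KO-only peaks had a median of 48.5% and shared KO peaks one of 60%. The central 31 bp of all 91 peaks occurred once in the genome, so no Sall peak rests on a sequence with an exact copy elsewhere.

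**Figure D5:**
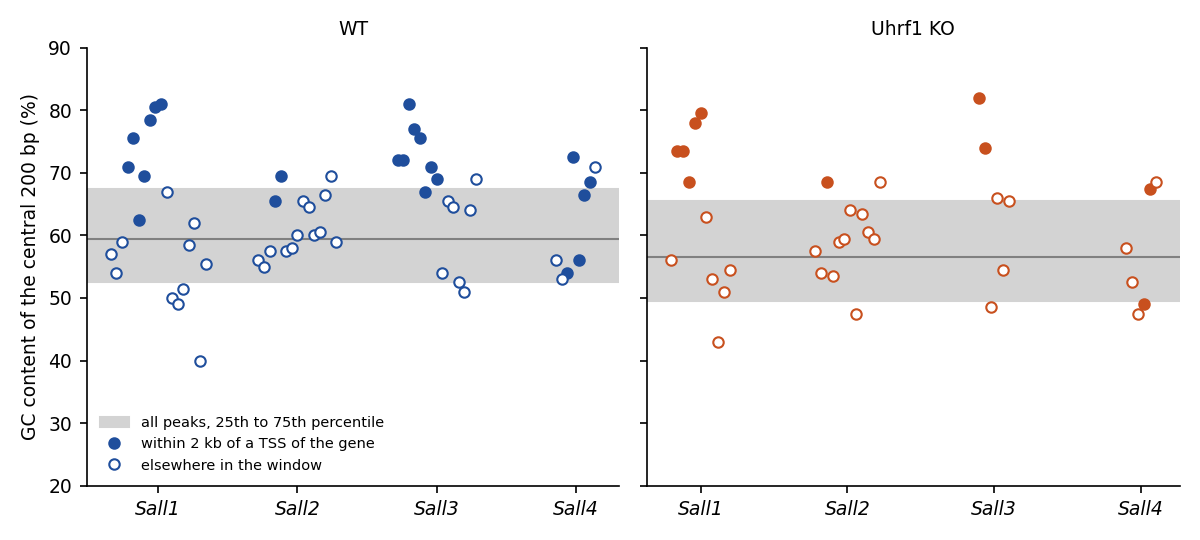
GC content (%) of the central 200 bp of each Sall peak in WT (left) and Uhrf1 KO (right). Filled circles lie within 2 kb of a TSS of the gene and open circles elsewhere in its window, the grey line and band give the median and the 25th to 75th percentile of all peaks of the list. Promoter peaks of Sall1 and Sall3 reach 81% in WT, above the band, while the distal peaks of Sall1 fall to 40%.

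Within the family the promoters differed in composition. The WT promoter peaks of Sall1 had a median GC content of 75.5%, those of Sall3 one of 72%, those of Sall2 one of 67.5% and those of Sall4 one of 66.5%. The CpG ratio of the WT promoter peaks was 0.957 at Sall3, the highest of the family, beside 0.739 at Sall1, 0.604 at Sall2 and 0.799 at Sall4. The Sall3 promoter also had the lowest ratio of KO to WT peaks (0.25, 0.0259 to 1.25). With neighbouring promoter peaks merged, however, Sall3 and Sall4 both had 4 WT and 2 KO regions, so Sall3 was not lowest alone. A link between this ratio and the CpG ratio was not tested. Away from promoters, the median GC content of the Sall1 WT peaks was 55.5%.

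Short motifs were searched on both strands of the central 200 bp, as letters only. The octamer ATGCAAAT, read by Oct4, was in 2 WT peaks (3.57%, beside 1.58% of all WT peaks) and 1 KO peak (2.86%, beside 1.95%). All of these lay at the Sall3 promoter, in the shared WT peaks 260 and 123 bp upstream of the TSS and in the KO peak 151 bp upstream, whose windows overlap. The Sox motif CATTGT was in 8 WT peaks (14.3%, beside 6.91%) and 7 KO peaks (20%, beside 8.60%), of which 5 WT and 3 KO peaks belonged to Sall1. None of the 7 promoter peaks of Sall1 in WT held it. The Klf and Sp motif GGGCGG was in 22 WT peaks (39.3%, beside 38.4%) and 14 KO peaks (40%, beside 34.5%), close to its share among all peaks. The AT-rich letters ATATT, which Sall zinc fingers favour, were in 3 WT peaks (5.36%, beside 7.70%) and 1 KO peak (2.86%, beside 10.2%), all in distal Sall1 peaks. Neither the octamer nor ATATT lay within the 101 bp of any WT peak itself, as opposed to its central 200 bp. With so few matches, no share is resolved from that of all peaks by counting error, and a match is not a bound site.

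The NuRD complex, through which Sall proteins act, was read as a list of 14 genes. A promoter peak was found in WT at 13 and in Uhrf1 KO at 10 of them, with 36 WT and 22 KO peaks in all, beside 63.6% of all genes in WT and 58.7% in Uhrf1 KO. 9 genes had more WT than KO promoter peaks, 5 had equal numbers and 0 had more KO peaks. Of all genes with a WT promoter peak, 52.2% had fewer KO peaks, 30.1% equal numbers and 17.6% more, so fewer is the common direction among them. That background leaves out genes without a WT promoter peak, such as Gatad2b, which is among the 5 with equal numbers. Chd5, a remodelling subunit best known from neurons, and the adaptor subunits Mta1 and Mta3 had 1 WT and 0 KO peaks. The core remodelling ATPase Chd4 had 1 in each library, and the deacetylase Hdac1 had 3 in WT and 2 in Uhrf1 KO. Mbd3, the methyl-CpG binding domain subunit needed for NuRD assembly in ESCs, had 6 WT and 5 KO peaks. Its relative Mbd2, which binds methylated CpGs, had 4 and 1. The scaffold gene Gatad2b had no promoter peak in either library.

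Other genes with a layout like that of a Sall gene were sought by peak numbers alone, as the Euclidean distance over WT and KO numbers in 5 bins of distance to the TSS, from 50 kb upstream to 50 kb downstream. Nearest to Sall1 were 3110039M20Rik (distance 2.00), Hnrnph1 and Pou5f1 (2.83 each). Pou5f1 encodes Oct4 and had 15 WT and 10 KO peaks. Nearest to Sall2 were Lsmd1 (1.73), Ubtf (2.45) and BC096441 (2.83). Nearest to Sall3 were Tmem5 and Dtx4 (2.65 each) and Map3k12 (2.83), which had 10 to 11 WT and 5 to 7 KO peaks. Nearest to Sall4 were Gprc5b, Ccdc86 and Dapk1 (1.73 each). For Sall2 and Sall3 the last place was tied, with 5 and 8 genes at or below that distance, and ties went to the gene closest in length. No Sall gene was among the 3 genes nearest to another Sall gene. The layouts rest on 2 libraries and small numbers, and the distances carry no error.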

How the data were processed

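ATAC-seq of 1 WT and 1 Uhrf1 KO library of E14 ESCs was used. The authors used Bowtie2 2.1.0 (local alignment to mm9, 1 reported place per read) and kept fragments shorter than a mononucleosome. HOMER 4.9.1 is also named in the submitters' processing notes. The peak caller's settings and any shift of read ends to the Tn5 site are not given in the sources used here. The deposited lists hold positions, a name and a score, and the deposited score was 1 for every peak. Depth per peak is unknown.

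The members and lists were chosen with earlier results of these data known. Peaks were placed by their centre on GENCODE vM1 transcripts and read from NCBIM37 with Python 3.11.15, numpy 2.4.6, pandas 2.3.3, scipy 1.17.1, pysam 0.24.0, numba 0.67.0 and samtools 1.23.1. Figures were drawn with matplotlib 3.10.9. Peaks up to 100 bp apart were called shared, which is how the study treated transcription factor peaks. On 20000 simulated regions, the routine for this made 0 wrong calls. No test between genotypes was made. The sequence of 1 shared Sall4 peak is not reported here. RefSeq promoter entries matched 2 of the 4 genes, Sall1 and Sall2. Genes named were the Sall genes, genes starting in their windows, the 3 genes most alike, NuRD genes without a promoter peak, Uhrf1 and the cell type markers. Chd4, Hdac1, Mbd2 and Mbd3 were named for their roles after their values were seen, and Tfcp2l1 was not found in the annotation under that name. Alternatives were other flanks (10 or 100 kb), overlap rules, promoter distances, merged peaks, shortened lists and, for sequence, the whole peak instead of the central 200 bp. The settings without neighbouring promoters, without Sall1 and with RefSeq TSSs were added after seeing the data.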

Additional observations from a re-analysis of the deposited data

How the results depend on the processing

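Over 192 recomputed values, 50 values that answer a comparison stayed within the limits set, 10 moved and 2 reversed. Among the other values 85 stayed and 45 moved. The KO to WT ratio reversed at Sall2 to 1.17 with neighbouring peaks merged and at Sall4 to 2.00 with the WT list shortened to the KO length, and at both genes it was 1 in the lower 50% of name numbers. At Sall1 the ratio stayed between 0.545 and 0.714, and at Sall3 between 0.364 and 0.80, the latter in the lower 50% of name numbers. The WT-only share was 53.6% when at least 50% of both peaks had to be in common and 4% in the lower 50% of name numbers set against the whole KO list. The KO-only share was 28.6% with the same overlap rule and 25.7% with the WT list shortened. Within 1 kb of a TSS, Sall1 had 4 WT and 3 KO promoter peaks. With only the 5′ end of the gene record as TSS, Sall2 had 0 WT and 0 KO and Sall4 had 2 WT peaks and 1 KO peak. Motif matches moved with the window: with the whole peak instead of the central 200 bp, no WT peak held the octamer or the AT-rich letters. The cause was not tested. No paired analysis was possible because there is 1 WT and 1 Uhrf1 KO library. With 1 library per genotype and no reads per peak, leaving out a replicate could not be tried, and a threshold by score could not be applied.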
